A study of Saccharomyces cerevisiae with 48 samples.

Results

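The DNA replication and cohesin genes are 53 of the 6256 genes measured on a 1-colour Agilent array of the budding yeast Saccharomyces cerevisiae. They were listed by gene symbol for what their products do, and the rule used no measured value. Earlier results of these data were known when the list was made. They cover the origin recognition complex (6 genes), licensing (7), activation of the helicase (9), DNA polymerase alpha with primase (4), polymerase epsilon (3), polymerase delta (3), the sliding clamp with its loaders (7), the single-strand binding protein RPA (3), joining of Okazaki fragments (2), fork protection (4), deoxyribonucleotide synthesis (RNR1) and cohesin (4). All 53 symbols were matched to a probe, and all 53 probes were well above background on 48 of 48 arrays.

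A budding yeast cell prepares its origins in G1, when Cdc6 and the MCM helicase join the origin recognition complex. It fires these origins in S phase. Many genes of the replication fork and of cohesin, the ring that holds sister chromatids together, are transcribed in a burst at the G1/S boundary by the transcription factors MBF and SBF. Alpha factor, the peptide pheromone of MATalpha cells, halts MATa cells in G1 before that burst and switches on the mating program.

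The study measured MATa haploids of the cross YJM789 X S96, in which YJM789 derives from a clinical isolate and S96 is a laboratory strain. Cultures of 500 ml in YPAD medium reached an optical density of 0.6 and were then exposed to 5 µM alpha factor at 30 °C for 30 min, or left untreated. The treated arrays were 43 segregants of the cross and the parental lines HS959 and S96, and the untreated arrays were HS959, S96 and the segregant SEG8. The labels call HS959 a parental line and do not give its relation to YJM789. Each strain had 1 array per condition, so all p-values measure the spread between these arrays, which include no repeat cultures of 1 strain.

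The 48 arrays lay on 6 slides, slide 1 holding all 4 parental arrays and slide 2 the pair from SEG8. Median intensity per array ranged over 9804 to 23353, and the share of gene spots flagged well above background was 94.0% to 99.9%. Each gene had 1 probe, printed as 2 spots, so between strains a sequence change under the probe and a change in RNA level cannot be told apart. All 5 pheromone response markers rose with alpha factor, and their summed signal had a median of 2425% of the array's 75th percentile in treated segregants, against 165% in untreated arrays. All 7 MATa markers were present and rose, with summed signals of 2748% to 5295% in treated segregants, against 1347% to 1940% in untreated arrays. All 4 MATalpha markers also rose, and their sums spanned 26.5% to 360% in treated segregants, against 18.1% to 31.3% in untreated arrays. None of the 4 was at 0, and their part in the results on replication genes was not tested.

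Most replication and cohesin genes had less RNA after 30 min of alpha factor. The change was computed within each of 3 strains (HS959, S96 and SEG8) as the treated minus the untreated log2 signal, and tested with limma with strain as a block. Of the 53 genes, 35 fell at an adjusted p below 0.05, which is 66.0% of them, against 20.5% of all 6250 genes tested. Only MCM3, MCM5 and CTF4 rose, or 5.66% of the 53, against 15% of all genes, and 15 genes passed in neither direction. The median change was -0.55 on the log2 scale for the 53 genes and -0.04 for all genes. It was -0.45 in HS959, -0.51 in S96 and -0.60 in SEG8 for the 53 genes. The sign was the same in all 3 strains for 47 of the 53, and the share over all genes was not computed. The 3 treated arrays lay wholly below the 3 untreated arrays for 34 genes, or 64.2%, against 18% of all genes. A fall of at least 2-fold passed the test for 12 genes, or 22.6%, against 3.86% of all genes. In such bulk cultures, fewer cells in S phase and less RNA per cell cannot be told apart.

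With 6 arrays the fit had 2 residual degrees of freedom, and the count depended on the blocking and on single strains. Without the strain block 17 of the 53 genes fell and 1 rose. Without S96 27 fell and 3 rose, without HS959 22 fell and 0 rose, and without SEG8 16 fell and 0 rose. Of all 6250 genes 337 fell and 320 rose without the strain block, and 882 fell and 742 rose without S96. The counts over all genes were 463 lower and 375 higher without HS959, and 349 lower and 237 higher without SEG8. The 14 genes that fell under each of the 10 planned settings tried were MCD1, IRR1, SMC1, SMC3, RNR1, POL1, POL2, POL3, DPB2, POL30, CTF18, RAD27, TOF1 and CDC45.

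**Figure D1:**
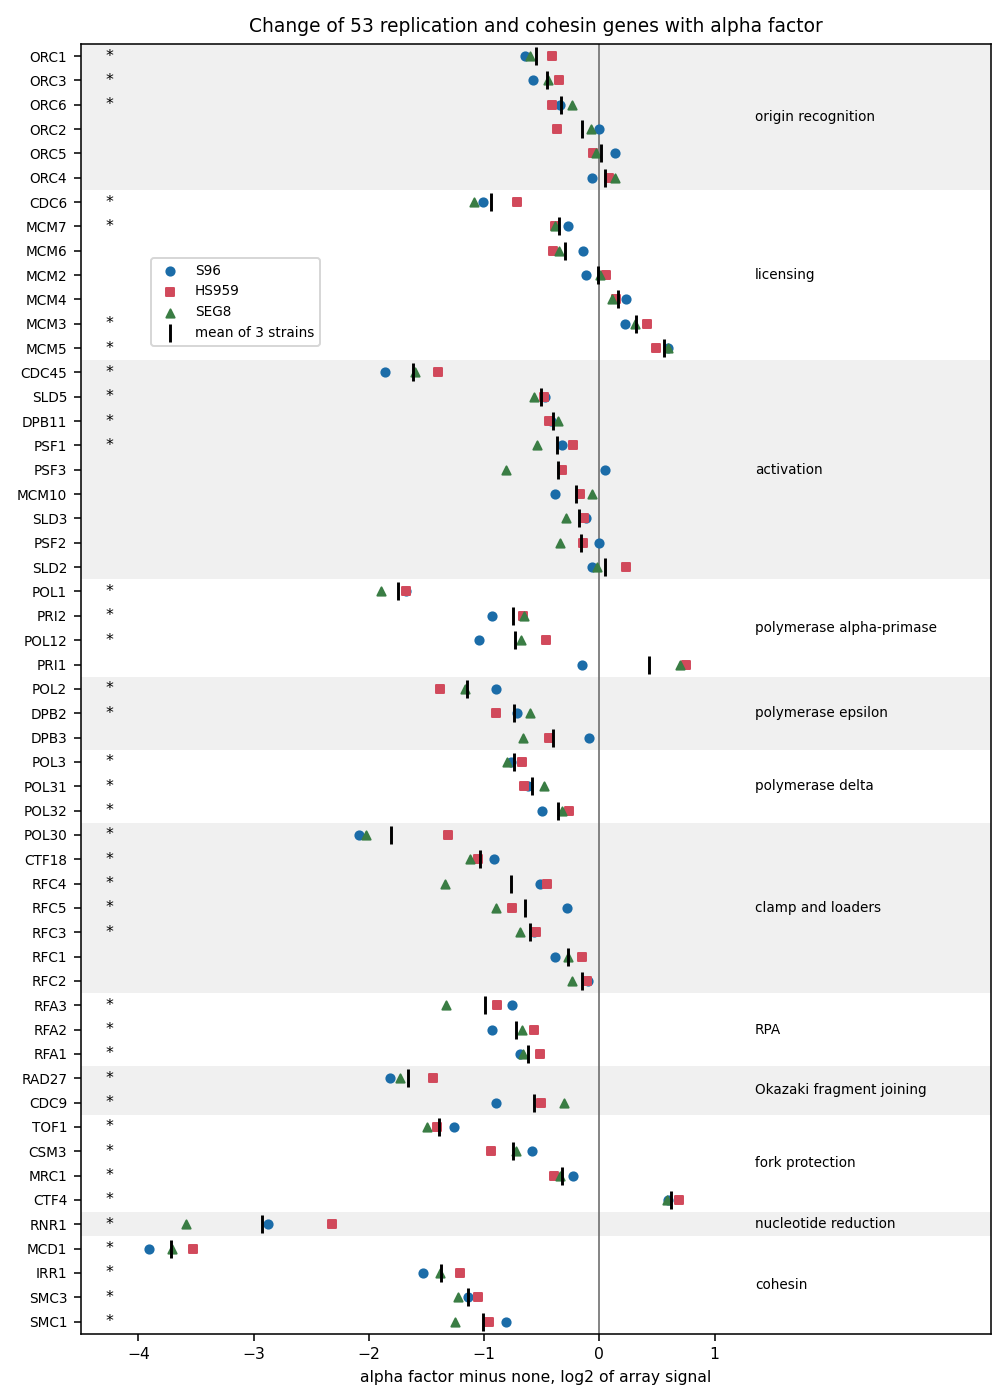
Change in log2 array signal with alpha factor (treated minus untreated, horizontal axis) for each of the 53 genes, grouped by role, in S96 (circles), HS959 (squares) and SEG8 (triangles), with the mean of the 3 strains as a vertical tick and an asterisk at the left edge where the limma adjusted p was below 0.05. MCD1 and RNR1 lie farthest to the left with means of -3.71 and -2.93, and MCM3, MCM5 and CTF4 are the 3 genes with an asterisk and a mean to the right of 0.

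The origin recognition complex marks origins throughout the cell cycle, and 3 of its 6 genes fell, with a median change of -0.24 on the log2 scale. ORC1, which encodes an ATPase subunit, had signals of 19.1%, 21.8% and 20.8% of the array's 75th percentile in treated HS959, S96 and SEG8, against 25.4%, 34.1% and 31.6% in the untreated cultures. The treated arrays of ORC1 were all below the untreated ones, and its change was -0.55 ± 0.12 (SD, n = 3 strains, limma adjusted p = 0.0128). ORC3 changed by -0.46 and ORC6 by -0.33, with adjusted p of 0.0193 and 0.0372 in the limma fit. ORC5, another subunit of the complex, stood at 31.1%, 40.1% and 31.6% with alpha factor and at 32.4%, 36.6% and 32.3% without it in the same strains. Its arrays overlapped, and the change of 0.01 ± 0.10 did not pass (adjusted p = 0.901, limma). ORC2 and ORC4 did not pass either, with changes of -0.15 and 0.05.

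Licensing, the loading of the Mcm2-7 helicase onto origins by Cdc6 with Cdt1, had genes that moved both ways. CDC6, which encodes the unstable loading ATPase, had 23.7%, 15.5% and 12.6% in treated HS959, S96 and SEG8, against 38.9%, 31.3% and 26.8% untreated. The groups did not overlap, and CDC6 fell by 0.94 on the log2 scale (SD 0.20, n = 3 strains, limma adjusted p = 0.00617). Without the strain block its adjusted p was 0.0869.

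The 6 subunits of the helicase ring, MCM2 to MCM7, had a median change of 0.07, with 1 gene lower, 2 higher and 3 past the threshold in neither direction. MCM5 had 54.0%, 69.7% and 69.5% in treated HS959, S96 and SEG8, against 38.4%, 46.3% and 46% untreated. All treated arrays of MCM5 were higher than all untreated ones, and the change was 0.56 ± 0.06 (SD, n = 3, limma adjusted p = 0.00964). MCM3 had 76.2%, 85.5% and 75.3% with alpha factor, against 57.3%, 73.3% and 60.7% without it. Its treated arrays were also the higher ones, by less, at 0.32 ± 0.09 (SD, n = 3, limma adjusted p = 0.0426), and normexp background correction moved that p to 0.0501. MCM4 did not overlap either (42.6% to 48.6% treated, 38.6% to 41.4% untreated), but its change of 0.16 had an adjusted p of 0.172 in the limma fit. MCM7 fell by 0.35 (adjusted p = 0.0299, limma), and MCM6 changed by -0.30 without passing (adjusted p = 0.0612).

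MCM2 showed no detectable change, with 45.6%, 40.9% and 36.8% in treated HS959, S96 and SEG8, against 43.7%, 44.3% and 36.7% untreated. The groups overlapped almost completely, and the change was -0.02 ± 0.09 (SD, n = 3, limma adjusted p = 0.894). Its sign turned under quantile and median scaling.

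The activation genes convert the loaded ring into the moving helicase of Cdc45, Mcm2-7 and GINS, and 4 of the 9 fell, with a median of -0.36. CDC45, the subunit that joins at the moment of firing, had 11.9%, 9.74% and 11.3% in treated HS959, S96 and SEG8, against 31.5%, 35.3% and 34.2% untreated. The treated arrays of CDC45 were close together and far below the untreated ones, and the fall was 1.62 on the log2 scale (SD 0.23, n = 3, limma adjusted p = 0.00248). GINS is a ring of 4 subunits, of which SLD5 (-0.51) and PSF1 (-0.37) fell while PSF2 (-0.16) and PSF3 (-0.36) did not pass. The call of PSF1 was lost in 6 of 10 planned settings, among them quantile scaling (adjusted p = 0.0567, limma), median scaling (0.0539), no strain block (0.178) and the omission of any 1 strain. PSF3 had 23.3%, 44% and 18.6% with alpha factor, against 29.1%, 42.5% and 32.8% without it. It was lower with treatment in HS959 and SEG8 and slightly higher in S96. DPB11, which bridges phosphorylated Sld2 and Sld3 to recruit the rest, fell by 0.41 (adjusted p = 0.0189, limma). SLD2 itself had 25.5%, 20.5% and 23.0% treated, against 21.7%, 21.4% and 23.4% untreated, and its arrays overlapped with a change of 0.05 ± 0.16 (SD, n = 3, limma adjusted p = 0.718). SLD3 (-0.18) and MCM10 (-0.21) did not pass.

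Polymerase alpha with primase starts each new strand, and 3 of its 4 genes fell, with a median change of -0.74. POL1, the catalytic polymerase subunit, had 14.4%, 18.8% and 12.1% in treated HS959, S96 and SEG8, against 46.1%, 60.1% and 45.2% untreated. In each strain the treated array of POL1 was far below the untreated one, with changes of -1.68, -1.68 and -1.90 and a mean of -1.75 (SD 0.13, n = 3, limma adjusted p = 0.00125). PRI2, the large primase subunit, fell by 0.75 and POL12, the B subunit, by 0.73 (adjusted p of 0.00822 and 0.0186 in the limma fit).

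PRI1, the small, catalytic primase subunit, did not move with the others of its complex. It had 82.1%, 57.5% and 103% in treated HS959, S96 and SEG8, against 48.8%, 64.0% and 63.2% untreated. Signal was higher with treatment in HS959 (0.75) and SEG8 (0.70) and lower in S96 (-0.15). The mean of 0.43 ± 0.51 did not pass over the 3 strains (adjusted p = 0.173, limma), and without S96 it was 0.72 with an adjusted p of 0.0197.

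Polymerase epsilon copies the leading strand. POL2, its catalytic subunit, had 16.8%, 25.6% and 23.2% in treated HS959, S96 and SEG8, against 43.8%, 47.6% and 52.0% untreated. No treated array of POL2 reached an untreated one, and the change was -1.15 ± 0.25 (SD, n = 3, limma adjusted p = 0.00514). The essential B subunit DPB2 fell by 0.74 (adjusted p = 0.00803, limma). DPB3, a small histone-fold subunit, had 13.8%, 16.7% and 14.6% treated, against 18.7%, 17.8% and 23.2% untreated. Its arrays did not overlap, yet the change of -0.40 ± 0.29 missed the threshold (adjusted p = 0.0765, limma), being -0.09 in S96 and -0.67 in SEG8.

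All 3 genes of polymerase delta, the lagging-strand enzyme, fell, with a median of -0.59. The catalytic subunit POL3 had 30.3%, 29.8% and 27.9% in treated HS959, S96 and SEG8, against 48.2%, 50.6% and 48.5% untreated. The arrays of each group lay close together, and the change was -0.75 ± 0.07 (SD, n = 3, limma adjusted p = 0.00524). POL32, a nonessential subunit, had 29.4%, 30.8% and 28.5% treated, against 35.4%, 43.5% and 35.7% untreated, a change of -0.36 (adjusted p = 0.0344, limma). POL31 lay between them at -0.59.

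Among the clamp and its loaders 5 of 7 genes fell. POL30 encodes PCNA, the sliding clamp that tethers polymerases to DNA. It had 129%, 65.2% and 61.7% in treated HS959, S96 and SEG8, against 321%, 277% and 251% untreated. The groups were wide apart, and the treated HS959 array was the highest of the 3. The change was -1.32 in HS959, -2.09 in S96 and -2.02 in SEG8, with a mean of -1.81 (SD 0.43, limma adjusted p = 0.00471).

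The 5 subunits of replication factor C, which opens the clamp, ranged over -0.77 to -0.15, and RFC3, RFC4 and RFC5 passed. RFC2 had 52.5%, 67.0% and 60.2% treated, against 56.7%, 71.8% and 71.0% untreated, with overlapping arrays and a change of -0.15 ± 0.08 (SD, n = 3, limma adjusted p = 0.207). CTF18, the large subunit of an alternative loader that acts in sister chromatid cohesion, had 10.8%, 16.1% and 12.3% with alpha factor, against 22.3%, 30.3% and 26.8% without it. Its treated arrays were all below the untreated ones, by -1.03 ± 0.11 (SD, n = 3, limma adjusted p = 0.00318).

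All 3 subunits of RPA, which coats single-stranded DNA at the fork, fell. RFA3, the smallest subunit, had 55.3%, 73.7% and 36% in treated HS959, S96 and SEG8, against 102%, 125% and 90.8% untreated. RFA1, the largest, had 61.0%, 48.3% and 47.2% treated, against 87.4%, 77.7% and 74.6% untreated. In neither gene did the groups overlap, and the changes were -0.99 ± 0.30 for RFA3 and -0.62 ± 0.09 for RFA1 (SD, n = 3, limma adjusted p of 0.00966 and 0.00853). RFA2 lay between at -0.72.

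Both genes of Okazaki fragment joining fell. RAD27, the flap endonuclease that trims the fragment's 5′ end, had 21.2%, 20.1% and 17.4% in treated HS959, S96 and SEG8, against 57.7%, 71.0% and 57.6% untreated. The groups of RAD27 were far apart, at -1.66 ± 0.19 (SD, n = 3, limma adjusted p = 0.00193). CDC9, the DNA ligase that seals the nick, had 29.7%, 22.7% and 30.7% treated, against 42.3%, 42.3% and 37.9% untreated. It was lower in each strain but by unequal amounts, from -0.90 in S96 to -0.30 in SEG8 (mean -0.57, limma adjusted p = 0.0345).

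The fork protection group was split. TOF1, which with Csm3 lets the fork pause at protein barriers, had 13.1%, 12.8% and 14.1% in treated HS959, S96 and SEG8, against 34.8%, 30.7% and 39.8% untreated. Its treated arrays were close together and all below the untreated ones, at -1.39 ± 0.12 (SD, n = 3, limma adjusted p = 0.00193). CSM3 fell by 0.75, and MRC1, the mediator of the replication checkpoint, fell by 0.32, with adjusted p of 0.00901 and 0.0384 in the limma fit. MRC1 had 17.2%, 16.6% and 18.1% treated, against 22.5%, 19.4% and 23.0% untreated, and under quantile scaling its adjusted p was 0.0807.

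CTF4, whose product is a trimer that links the helicase to polymerase alpha, went the other way. It had 46.7%, 40.6% and 47.4% in treated HS959, S96 and SEG8, against 28.9%, 26.8% and 31.7% untreated. All treated arrays of CTF4 were above all untreated ones, by 0.62 ± 0.06 (SD, n = 3, limma adjusted p = 0.00769).

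RNR1, the large subunit of ribonucleotide reductase, had the second largest fall. It stood at 28.6%, 23.1% and 13.6% in treated HS959, S96 and SEG8, against 143%, 169% and 164% untreated. The groups were far apart in each strain, most so in SEG8, with changes of -2.32 in HS959, -2.88 in S96 and -3.58 in SEG8. The mean was -2.93 (SD 0.63, limma adjusted p = 0.00353), a signal 7.61-fold lower.

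All 4 cohesin genes fell, with a median of -1.26. MCD1 encodes the kleisin that closes the ring and is cleaved at anaphase. It had 6.18%, 4.31% and 6.03% in treated HS959, S96 and SEG8, against 71.1%, 64.7% and 79.0% untreated. This was the largest fall among the 53 genes in the limma fit, at -3.71 ± 0.19 (SD, n = 3, adjusted p = 0.000448), a signal 13.1-fold lower.

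IRR1, the subunit that binds the kleisin, had 13.6%, 12% and 11.6% treated, against 31.4%, 34.6% and 30.4% untreated. SMC3, an ATPase arm of the ring, had 18.1%, 15.9% and 17.9% treated, against 37.4%, 35.2% and 41.7% untreated. SMC1, the other arm, had 18.4%, 28.4% and 19.9% treated, against 35.6%, 49.9% and 47.3% untreated. None of the 3 genes overlapped between the groups, and their changes were -1.38, -1.14 and -1.01 (limma adjusted p of 0.00243, 0.00248 and 0.00614).

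Other genes of the same pathways gave a mixed picture, to be read against 20.5% of all 6250 genes lower and 15% higher. Of 15 further replication genes 5 fell and 1 rose, with a median of -0.25, among them RNH201, a subunit of RNase H2 (-1.72), and TOP2, topoisomerase II (-0.97). RNH202, another RNase H2 subunit, was the 1 that rose (0.42, limma adjusted p = 0.0199). Of 7 nucleotide supply genes 2 fell, the thymidylate synthase gene CDC21 (-1.65) and the dUTPase gene DUT1 (-0.66), while RNR2 (-0.13) and RNR4 (0.18), for the small subunits of the reductase, did not pass. Of 8 genes for cohesin loading and release 6 fell, with a median of -0.63, led by PDS5 (-2.26), PDS1, the securin (-1.41), and SCC2, the loader (-0.95). Of 8 regulators of G1/S transcription 6 fell, with a median of -0.83, led by CLB6 (-5.71), an S-phase cyclin, NRM1 (-3.69), a repressor of MBF targets, and CLB5 (-1.48). CLB6 was well above background on 47 of 48 arrays, and REC8, among the 6 cohesin loading and release genes that fell, on 46. In the comparison of treated segregants with untreated arrays given below, 5, 2, 4 and 6 genes of these lists were lower, in this order. Of all genes 17.2% were lower there.

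A pair of neighbours showed how unevenly adjacent members moved. POL2 and ORC5 lie next to each other in tandem on chromosome XIV and changed by -1.15 and 0.01. RFC5 and POL30, convergent neighbours on chromosome II, changed by -0.65 and -1.81.

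The treated segregants gave a further set of treated cultures, read against the 3 untreated arrays that also entered the paired comparison, so the comparisons share their untreated side. Those 3 arrays were HS959, S96 and SEG8 on slides 1 and 2, so differences of strain and slide were mixed with treatment here. With 42 segregants (SEG8 left out) against 3 untreated arrays in limma, 34 of the 53 genes were lower, or 64.2%, against 17.2% of all genes, and 3 were higher, against 11.7% of all genes. The median difference was -0.69 for the 53 genes and -0.09 for all 6256 genes. For 25 of the 53 genes, or 47.2%, all 43 segregants lay below the lowest untreated array, against 5.80% of all genes.

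MCD1 ranged from 3.17% to 8.50% over the 43 segregants, with a median of 5.10%, against 64.7% to 79.0% in the untreated arrays. RNR1 ranged from 5.81% to 28.9% with a median of 16%, against 143% to 169% untreated. RAD27 ranged from 11.8% to 20.9% with a median of 16.2%, against 57.6% to 71.0% untreated. For these 3 genes, POL30, POL1, CDC45, TOF1, IRR1 and SMC3, 43 of 43 segregants were below the lowest untreated array.

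At the other end MCM5 had a segregant median of 66.0% (45.6% to 127%), and 42 of 43 segregants were above the highest untreated array of 46.3%. CTF4 had a median of 45% (23.2% to 63.3%), and 41 of 43 were above 31.7%. MCM3 had a median of 84.2% (67.1% to 145%), and 36 of 43 were above 73.3%. These were the 3 genes called higher, with differences of 0.58, 0.60 and 0.45, but with slide as a block MCM5 (0.33, adjusted p = 0.174) and MCM3 (0.29, adjusted p = 0.0679) no longer passed in limma. Without the untreated HS959 array 1 of the 3 passed. MCM2 had a median of 38.2% (31.3% to 47.5%), and its difference of -0.12 did not pass (adjusted p = 0.283, limma).

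**Figure D2:**
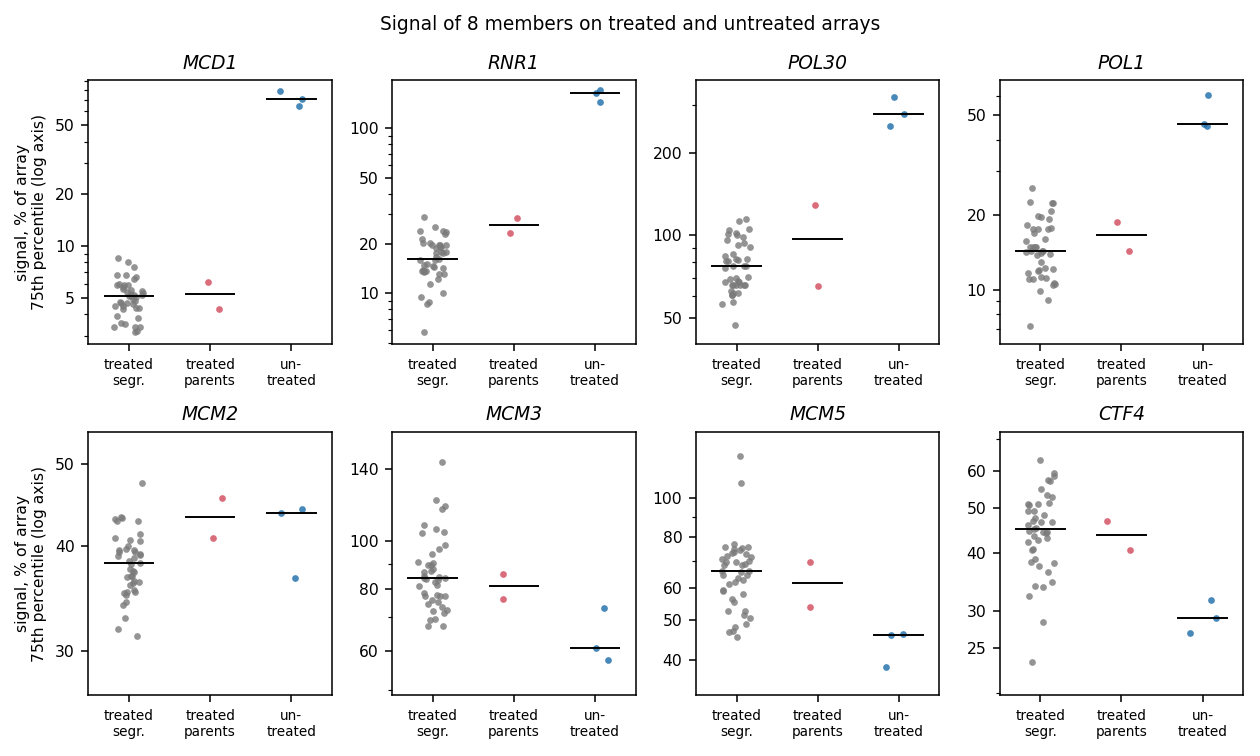
Signal as a percent of the array's 75th percentile (log axis) for 8 genes in the 43 treated segregants, the treated parents HS959 and S96, and the 3 untreated arrays, with a bar at the median of each set. MCD1, RNR1, POL30 and POL1 are low in all treated arrays, with segregant medians of 5.10%, 16%, 77.1% and 14.3%, while MCM3, MCM5 and CTF4 are mostly above the untreated arrays and MCM2 overlaps them.

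The segregants did not always lie between their parents. For MCM7 42 of 43 segregants, for RAD27 41 and for RFC3 40 had a lower signal than both treated parental arrays, and for ORC6 41 of 43 were higher than both. More than 21 segregants lay below both for 23 of the 53 genes, and above both for 4. The shares over all genes were not computed, so these counts cannot be read as a trait of the 53. Both treated parental arrays were on slide 1, and each was a single array, so the part of slide and of array error in these counts was not tested.

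Between the parents 1 of the 53 genes differed, or 1.89%, against 20.6% of all genes. CTF18 had 10.8% in treated HS959 and 16.1% in treated S96, and 22.3% in untreated HS959 against 30.3% in untreated S96. HS959 was thus lower in both conditions, by -0.58 with alpha factor and -0.44 without it, with a mean HS959 minus S96 of -0.51 (limma adjusted p = 0.0332). The call was lost under quantile scaling (-0.39, adjusted p = 0.0556), under normexp background correction and without the SEG8 arrays. Of all genes called, 420 were higher and 868 lower in HS959. Quantile scaling moved that split to 705 higher and 606 lower, with a median of all genes of 0.04, against -0.09 under the scaling used here, and CDC6 was called instead, at 0.58 (adjusted p = 0.0421).

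The other 52 genes gave no call, and 15 of the 53 had an unadjusted p below 0.05 in limma. The share of all genes at that unadjusted level was not computed, but 20.6% of all genes passed even after adjustment. The median HS959 minus S96 difference was -0.09 for the 53 genes and also -0.09 for all genes. HS959 was lower than S96 in both conditions for 23 of the 53 and higher in both for 16, and for 14 the sign depended on the condition. These signs were not counted over all genes. POL30 had the largest mean of the positive differences, 0.98 with alpha factor and 0.21 without it, with an adjusted p of 0.117. PSF3 had the largest of the negative ones, at -0.92 with alpha factor and -0.54 without it (adjusted p = 0.0812 in limma).

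**Figure D3:**
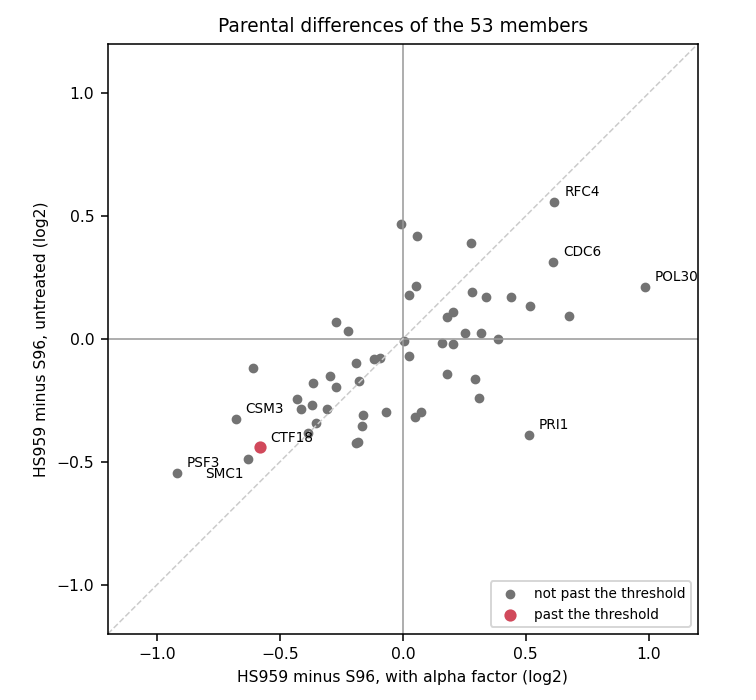
HS959 minus S96 difference in log2 signal with alpha factor (horizontal axis) and untreated (vertical axis) for the 53 genes, with the dashed line marking equal differences. CTF18 at -0.58 and -0.44 is the 1 gene past the threshold, POL30 lies far to the right at 0.98, and PRI1 sits below the horizontal line at 0.51 and -0.39.

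Spread among the treated segregants was tested against the noise of the 6 paired arrays with an F test, as each segregant had 1 array. That noise was the residual of the paired fit, so it included differences between strains in their change with alpha factor. Each pair lay on 1 slide, so the noise held no differences between slides, while the segregants lay on all 6. The SD of log2 signal over 43 segregants ranged from 0.13 (MCM2) to 0.67 (RFC4), with a median of 0.26, against 0.29 for all genes. It passed for 14 of the 53 genes, or 26.4%, against 30.9% of all genes, so the share among the replication genes was close to that of the array as a whole. Within slides 3 genes passed, or 5.66%, against 18% of all genes, and these were MRC1, ORC2 and POL1.

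The 8 genes with the largest SD were RFC4, RFC5, MRC1, PSF3, ORC2, RFA3, DPB3 and RNR1. Among them RFC4, PSF3 and RNR1 did not pass the F test. RFC4 ranged from 5.25% in SEG36 to 36.2% in SEG44, with a median of 18.6%. PSF3 ranged from 7.60% in SEG36 to 49.6% in SEG3, with a median of 26%. RFA3 ranged from 11.7% in SEG41 to 80.7% in SEG24, with a median of 49.6%. DPB3 ranged from 3.77% in SEG36 to 17.7% in SEG22, with a median of 14.2%.

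SEG36 recurred at the low end and had the lowest signal of all segregants for 16 of the 53 genes, the next being SEG14 with 7. These counts were not made over all genes, so they cannot be read as a trait of the 53. SEG36 lay on slide 5, whose 8 segregants had a median RFC5 signal of 13%, against 28.7% in the 35 others. On the same slide the medians were also low for RFC4 (10.53%, against 21.1%), PSF3 (12.8%, against 27.9%), DPB3 (6.93%, against 14.6%) and RNR1 (9.79%, against 17.8%). Slide 5 was lower by at least 0.5 on the log2 scale for 9 of the 53 genes, or 17%, and for 16.9% of all genes. Without slide 5 the spread of 2 of the 53 genes, POL1 and MRC1, passed, against 18.3% of all genes. Without SEG36 that of 7 did, against 25.9% of all genes. Slide and strain cannot be told apart for these 8 arrays.

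Duplicate spots of the 53 genes differed by more than 1 on the log2 scale in 6 of 2544 gene and array combinations, none of them on the 6 paired arrays. ORC2 in SEG36 had processed intensities of 26547 on one spot and 134 on the other, so its signal of 6.81%, against a segregant median of 77.0%, rested on spots that disagreed. Without that array the SD of ORC2 was 0.16, against 0.55 with it, and it no longer passed (adjusted p = 0.373, F test). MRC1 and RFC5 were highest in SEG21, at 72.8% and 106%, and there too the spots disagreed, by 5.77 and 3.60 on the log2 scale. With such spots left out MRC1 kept an SD of 0.50 (F test adjusted p = 0.0200) and RFC5 one of 0.56 (F test adjusted p = 0.0464). Of the 53 genes 11 then passed, all among the 14, against 26.6% of all genes.

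POL1 passed within slides, without slide 5, without SEG36 and with disagreeing spots left out. It ranged from 7.14% in SEG14 to 25.6% in SEG6, with a median of 14.3% and an SD of 0.40, against a noise SD of 0.11. It did not pass under normexp background correction (adjusted p = 0.0516) or when HS959 or SEG8 was left out of the noise estimate. When SEG8 was left out of that estimate 1 of the 53 genes passed, against 6.44% of all genes. When HS959 was left out 2 passed, against 11.7% of all genes.

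**Figure D4:**
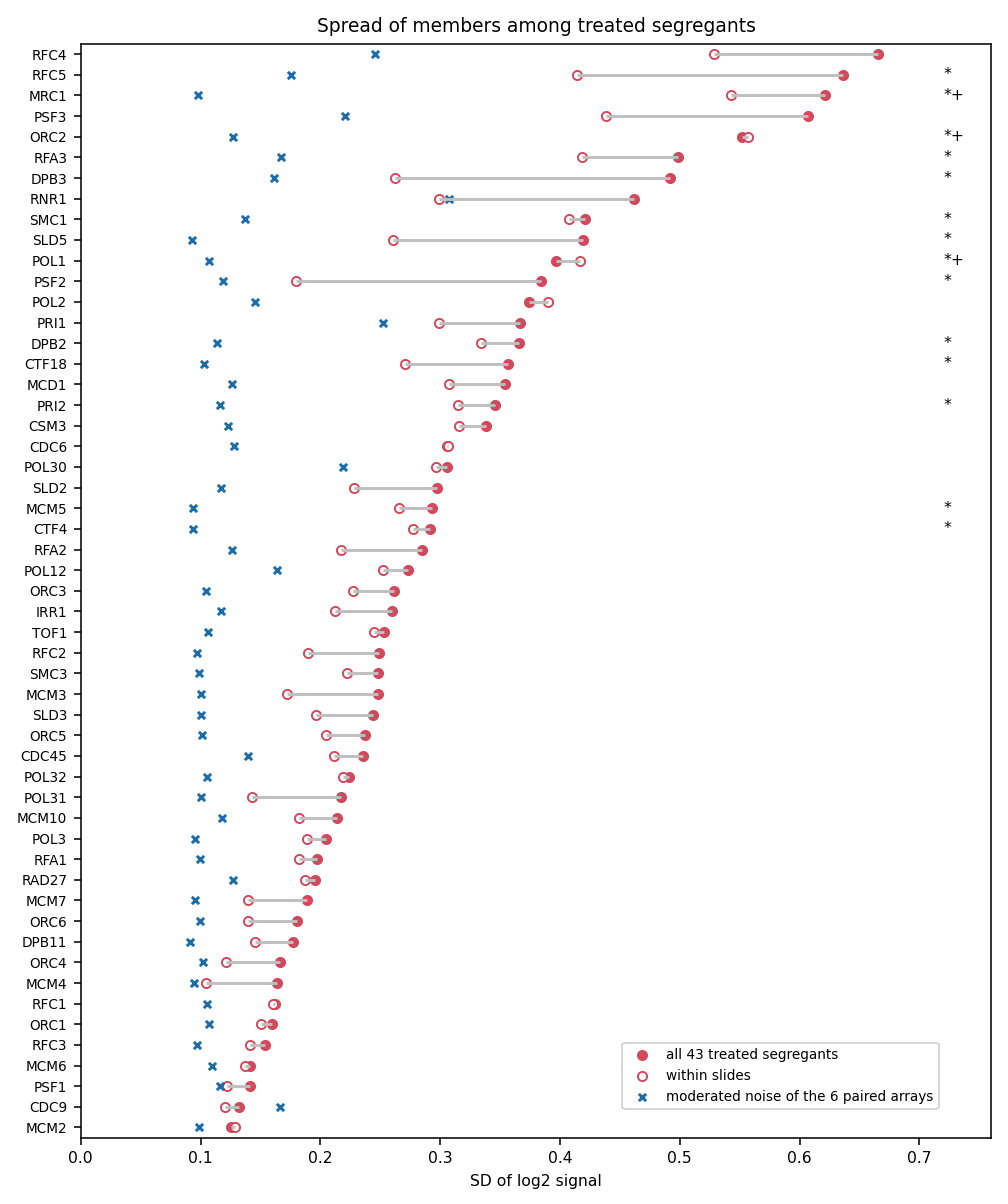
SD of log2 signal over the 43 treated segregants for each gene (filled circles), the SD within slides (open circles) and the noise SD of the 6 paired arrays (crosses), with an asterisk where the F test passed over all segregants and a plus where it passed within slides. RFC5, DPB3 and PSF2 lose much of their spread within slides, while POL1 keeps its SD near 0.40.

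How far the genes of a complex varied together from segregant to segregant differed between complexes and with the slides. The median correlation over all pairs of the 53 genes was 0.10 over 43 segregants, against 0.02 over all genes, and 0.12 against 0.01 with slide means removed. All pairs share the same arrays, scaling and slides. The 6 pairs within GINS had a median r of 0.55, led by PSF2 with PSF3 (0.82) and PSF2 with SLD5 (0.78). That median was 0.21 with slide means removed and 0.04 over the 35 segregants without slide 5. The 10 pairs within replication factor C had a median r of 0.34, with 0.72 for RFC4 and RFC5, and medians of 0.28 with slide means removed and 0.32 without slide 5. RPA had a median r of 0.34 over its 3 pairs, and 0.54 without slide 5. The 15 pairs of the MCM ring had a median r of 0.05 and ranged from -0.54 (MCM3 with MCM4) to 0.67 (MCM4 with MCM7). With slide means removed their median was 0.08 and their range -0.19 to 0.45, and without slide 5 these were 0.10 and -0.21 to 0.30. MCM3 with MCM4 had -0.12 with slide means removed and 0.16 without slide 5, and MCM4 with MCM7 had 0.45 and 0.29. These correlations within complexes were chosen after seeing the data and were not tested.

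Of 8 pairs tested by permutation none passed with Pearson's r after Benjamini-Hochberg adjustment over the 8. The cohesin pair SMC1 and SMC3 had r = -0.18 and rho = -0.18 (permutation adjusted p of 0.522 and 0.485). MCD1 and SMC3 had r = 0.31 and rho = 0.29 (permutation adjusted p of 0.111 and 0.161), and r was 0.03 within slides.

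CDC45 and POL1 had r = 0.35 and rho = 0.31 (permutation adjusted p of 0.0911 and 0.161), and r = 0.46 within slides (permutation adjusted p = 0.0142). Without the 2 segregants farthest from the CDC45 median r was 0.21. MCD1 and the cyclin gene CLB6 had r = 0.38 and rho = 0.42 (permutation adjusted p of 0.0911 and 0.0426), but r = 0.22 within slides (adjusted p = 0.429). The remaining pairs, POL1 with POL12, MCM2 with MCM3, RFA1 with RFA2 and MCD1 with RNR1, had r of 0.10, 0.06, 0.12 and 0.07, with permutation adjusted p of 0.710 each.

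The 3 members on chromosome XII, ORC3, MCM5 and CDC45, were highest in SEG9 and SEG42, where genes of that chromosome as a whole were raised. Over 493 genes of chromosome XII the median shift was 0.79 in SEG9 and 0.81 in SEG42, against -0.15 to 0.06 in the other 41 segregants. ORC3 had 41% in SEG9 and 37.6% in SEG42, which were 1.06 and 0.94 above the median of the 41. MCM5 had 109% and 127%, or 0.73 and 0.95 above that median. CDC45 had 14.1% and 14.4%, or 0.45 and 0.47 above. In each gene 0 of 41 other segregants reached either value. These 2 segregants were known from earlier results to stand apart, so the values are a description. Without them 12 of the 53 genes passed the F test of spread, against 27.8% of all genes, and MCM5 did not (adjusted p = 0.0787).

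**Figure D5:**
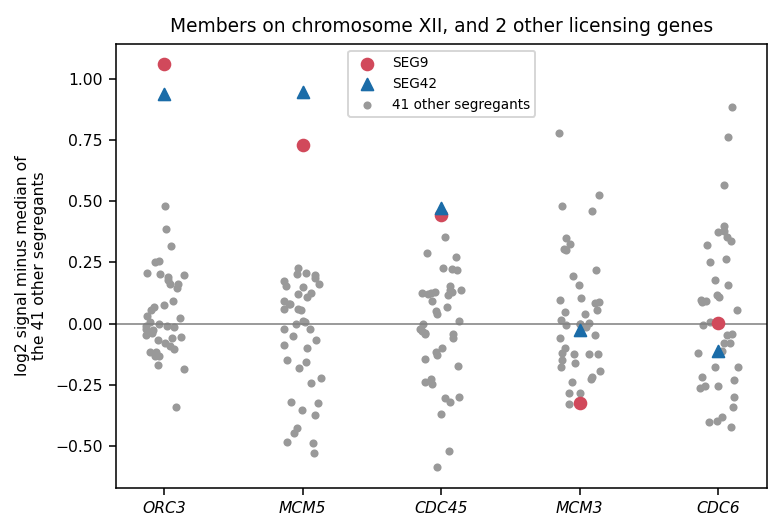
Log2 signal minus the median of the 41 other segregants for ORC3, MCM5 and CDC45 on chromosome XII and, for comparison, the licensing genes MCM3 and CDC6 on other chromosomes, with SEG9 (circles) and SEG42 (triangles) marked. SEG9 and SEG42 lie above all others for the 3 chromosome XII genes (1.06 and 0.94 for ORC3) and within the others for MCM3 and CDC6.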

How the data were processed

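Total RNA of 48 cultures was amplified to Cy3-labelled cRNA, per the labels' protocols, and each culture was read on its own 1-colour array. The deposited values are intensity per spot: the authors' background-subtracted, processed signal from Agilent Feature Extraction (version 10.5.1.1 per the file headers, 9.1 per the submitters' processing notes), not normalized between arrays. The deposited flags for saturation, outliers and signal well above background are 0 or 1, per the file headers. The deposited value table held the same intensity in 626304 of 626304 cells, and the array design names build sacCer1, per the file headers. Symbols for 5756 of 6256 genes came from RefSeq R64, and 500 kept their systematic names.

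The 536 control spots and the spots flagged as outliers (0 to 97 per array) were left out. Each array's log2 intensity was centred on its 75th percentile, and the 2 spots of a gene were averaged (median SD of duplicates 0.039 on the log2 scale). Spots saturated on an array numbered 0. Arrays give no counts, so their number limits the precision. The paired fit took probes detected above background in 2 or more of 6 arrays, the test of spread those detected in 22 or more of 43, and at least 3 of 45 were asked for in the comparison of 42 segregants with 3 untreated arrays. Fits used limma 3.58.1 (lmFit and eBayes) in R 4.3.3, with Benjamini-Hochberg adjustment over all genes at 0.05. The spread was tested with a one-sided F test, in which the denominator was the paired fit's residual variance after moderation (prior degrees of freedom 2.62), and pairs of genes with 100000 permutations in numpy 2.4.6. Plots used matplotlib 3.10.9.

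The strain named in the labels pairs the treated and untreated arrays. As a check, deviations of the arrays of 1 strain from their group means correlated at 0.84 to 0.90. Alternatives were quantile and median scaling, normexp background correction, filters, slides, strains left out and, chosen after seeing the data, disagreeing duplicate spots, SEG36, SEG21 and slide 5, the last also for correlations within complexes. Normexp used the median spot signal, since no mean signal column was at hand. The tests of alpha factor, of spread and of segregants against untreated arrays were also run on simulated data. Those data had independent noise and no slide differences among segregants, so they could not show what slides do to these tests.

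The 53 genes, the lists of further replication, nucleotide supply, cohesin loading and release, G1/S regulator and marker genes, and all tests were chosen with earlier results of these data known. The naming rule gave array values for the 12 genes with the largest changes, all genes that changed against the majority, the largest and smallest change of each role group, parental calls and the 8 genes with the largest spread. Genes named beyond it were chosen after their values were seen. Promoter and protein sequences were not used here.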

Additional observations from a re-analysis of the deposited data

Results flagged for a closer look

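In 6 of the 53 genes the change with alpha factor had opposite signs in 2 strains, which gave 12 strain pairs. These differences were not tested, since each strain had 1 treated and 1 untreated array. PRI1 had the widest gap, with S96 minus HS959 at -0.90, and its S96 minus SEG8 was -0.85 on the log2 scale, from changes of -0.15 in S96, 0.75 in HS959 and 0.70 in SEG8. For PSF3, which changed by 0.05 in S96, by -0.32 in HS959 and by -0.81 in SEG8, S96 minus HS959 was 0.37 and S96 minus SEG8 was 0.87. For SLD2 S96 minus HS959 was -0.29 and HS959 minus SEG8 was 0.26, with higher signal under alpha factor in HS959 (0.23) and lower in S96 (-0.06) and SEG8 (-0.02). The other 3 genes had changes between -0.11 and 0.13 in each strain. For ORC4 S96 minus HS959 was -0.15 and S96 minus SEG8 was -0.20. For ORC5 the same differences were 0.19 and 0.16, and for MCM2 they were -0.18 and -0.12. None of the 6 genes passed the limma test over the 3 strains.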

How the results depend on the processing

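The count of 35 genes lower with alpha factor stayed within 1.5 times under the scaling, background and filter settings (34 or 35), and 35 of the 38 calls held under all 6 of them. In the fit with no replicate block, that is without the strain pairing, it was 17 lower and 1 higher, and leaving out 1 strain gave 16 to 27 lower and 0 to 3 higher. Over all genes the paired fit called 2224, against 657 with no replicate block and 586 to 1624 without 1 strain, the parental contrast 1288, against 728 without SEG8, and the test of spread 1923, against 1120 within slides, 1140 without slide 5 and 401 to 1709 when a strain left the noise estimate. The parental count of 1 was 0 under normexp, 2 with a filter on all 6 arrays and 0 without SEG8. The 14 genes with spread among segregants were 8 under quantile scaling, 6 under normexp, 3 within slides and 1 to 11 when a strain left the noise estimate. Chosen after seeing the data, leaving out SEG36 gave 7 and leaving out slide 5 gave 2. Of all genes 27.2% passed this test under quantile scaling, 22.7% under normexp and 25.9% without SEG36. Against untreated arrays, 3 higher genes were 1 with slide as a block, and leaving out an untreated array gave 28 to 31 lower and 1 to 2 higher. Signs turned only in values that passed no test. ORC5 was -0.0095 under normexp and -0.043 to 0.050 when a strain was left out. MCM2 was 0.0013 under quantile scaling, 0.0039 under median scaling and -0.054 to 0.034 when a strain was left out. SLD2 was -0.051 with the deposited value table, which holds the same intensities but was used with the spots flagged as outliers kept. It was -0.042 to 0.105 when a strain was left out. The correlation of MCM2 and MCM3 was -0.0065 within slides and -0.028 without SEG9 and SEG42, and that of MCD1 and RNR1 was -0.29 under quantile scaling. CDC45 and POL1 passed at r = 0.46 within slides and 0.46 under quantile scaling, and MCD1 and CLB6 at 0.39 under quantile scaling and 0.46 without SEG14. The cause of these changes was not tested.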
